A study of Mus musculus with 6 samples.

Results

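The Slit and Robo genes were examined in a deposited list of H3K9me3 ChIP-seq peaks that were present in wild type (WT) Bergmann glia (BG) and absent in mutant BG. Of the 34673 peaks in the list, 26 carried 1 of the 7 gene names Slit1, Slit2, Slit3, Robo1, Robo2, Robo3 and Robo4, the gene name being that of the nearest transcription start site (TSS). BG are radial astroglia of the cerebellar cortex whose fibers guide migrating granule cells. The 6 libraries came from BG of C57BL/6 mice at postnatal day 10, with 2 from mutant (MT) BG and 2 from WT BG precipitated with an H3K9me3 antibody, and 2 that the labels title input while their antibody field names IgG. According to the study's methods the mutants carried mGFAP-Cre and Setdb1 flox/flox, a Cre that is active in most cerebellar nerve cells apart from Purkinje cells, and BG were sorted by the GFP of Nestin-GFP mice, a signal that also marks a few oligodendrocyte lineage cells. The labels give the genotype of neither the WT mice nor the input libraries, and no source says whether the paired libraries of a genotype were made from different animals. The list merges the libraries and has no value per library, so no MT or WT level, depth, replicate error or test of MT against WT could be given for any peak. It holds no RNA values either, so the BG label could not be set beside marker genes.

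Slit proteins are large secreted ligands, and Robo proteins are their single-pass receptors of the immunoglobulin superfamily. Slit binding to Robo repels growing axons and migrating neurons, and it was first understood at the midline of the nervous system. Robo3 of mammals has lost high-affinity Slit binding and responds to Nell2, and Robo4 is found mostly in endothelium. H3K9me3 is a repressive histone mark laid down by Setdb1 among other methyltransferases, and it is known for silencing retrotransposons, so the repeat under each peak is given with its position.

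The sequences of the highest assigned peaks of Slit2, Slit3, Robo1 and Robo2 are printed. With them are 1 Slit1 peak and the only peak that the authors placed in an exon. They show kinds of DNA that the peaks covered: unique intron sequence, a stretch centred on a SINE, LINE sequence, processed gene copies and an exon. The Slit1 peak was chosen because it held the most TTGGCA matches of the 43 peaks described below, so its matches do not show how common they are. It and the exon peak were chosen after their values were seen. In the Slit3 sequence the annotated gene copy begins at base 35323199 of chromosome 11. Each sequence is the plus strand of mm10 (RefSeq GRCm38.p6) over the 300 bases at the centre of the peak. Capitals mark TTGGCA or its reverse complement, the single recognition element of NFI factors such as Nfix, except in the exon peak, where capitals mark the bases of the exon.
Slit1, score 11.6, chr19:41616820-41617119: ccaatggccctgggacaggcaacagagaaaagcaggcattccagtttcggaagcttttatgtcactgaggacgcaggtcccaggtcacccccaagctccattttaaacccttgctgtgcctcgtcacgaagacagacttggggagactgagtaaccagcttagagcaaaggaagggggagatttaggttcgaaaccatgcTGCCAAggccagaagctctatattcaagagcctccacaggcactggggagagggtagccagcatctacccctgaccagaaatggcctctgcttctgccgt
Slit2, score 7.06, chr5:47517178-47517477: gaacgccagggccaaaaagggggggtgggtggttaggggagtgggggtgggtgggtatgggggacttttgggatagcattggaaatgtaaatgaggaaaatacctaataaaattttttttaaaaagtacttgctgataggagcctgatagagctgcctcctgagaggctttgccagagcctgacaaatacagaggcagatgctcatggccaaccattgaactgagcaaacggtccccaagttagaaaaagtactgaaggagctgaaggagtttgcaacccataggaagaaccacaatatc
Slit3, score 8.99, chr11:35323016-35323315: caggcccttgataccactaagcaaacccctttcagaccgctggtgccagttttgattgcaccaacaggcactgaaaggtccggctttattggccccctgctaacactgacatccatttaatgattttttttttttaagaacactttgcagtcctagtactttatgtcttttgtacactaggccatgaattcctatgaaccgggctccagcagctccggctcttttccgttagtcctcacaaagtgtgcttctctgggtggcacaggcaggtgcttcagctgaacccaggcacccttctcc
Robo1, score 8.02, chr16:72451383-72451682: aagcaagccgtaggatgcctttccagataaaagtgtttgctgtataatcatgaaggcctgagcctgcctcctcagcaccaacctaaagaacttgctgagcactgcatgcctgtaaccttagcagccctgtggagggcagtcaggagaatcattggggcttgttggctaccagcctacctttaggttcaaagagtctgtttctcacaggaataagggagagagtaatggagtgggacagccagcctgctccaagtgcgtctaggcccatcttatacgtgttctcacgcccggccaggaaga
Robo2, score 7.06 on a LINE, chr16:74791827-74792126: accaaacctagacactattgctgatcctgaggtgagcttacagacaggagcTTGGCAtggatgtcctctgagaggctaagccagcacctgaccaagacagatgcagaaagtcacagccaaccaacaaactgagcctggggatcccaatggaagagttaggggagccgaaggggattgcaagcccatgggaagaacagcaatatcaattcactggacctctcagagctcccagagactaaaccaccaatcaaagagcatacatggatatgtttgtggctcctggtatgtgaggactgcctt
Robo2, score 7.06 off repeats, chr16:74961767-74962066: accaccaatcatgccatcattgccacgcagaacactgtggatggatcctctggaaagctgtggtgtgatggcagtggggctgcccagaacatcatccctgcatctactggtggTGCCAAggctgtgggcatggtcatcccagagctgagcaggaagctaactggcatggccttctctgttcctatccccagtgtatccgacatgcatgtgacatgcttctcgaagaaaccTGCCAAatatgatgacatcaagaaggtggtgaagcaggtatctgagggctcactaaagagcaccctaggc
Robo1, score 7.7 over an exon, chr16:73004555-73004854: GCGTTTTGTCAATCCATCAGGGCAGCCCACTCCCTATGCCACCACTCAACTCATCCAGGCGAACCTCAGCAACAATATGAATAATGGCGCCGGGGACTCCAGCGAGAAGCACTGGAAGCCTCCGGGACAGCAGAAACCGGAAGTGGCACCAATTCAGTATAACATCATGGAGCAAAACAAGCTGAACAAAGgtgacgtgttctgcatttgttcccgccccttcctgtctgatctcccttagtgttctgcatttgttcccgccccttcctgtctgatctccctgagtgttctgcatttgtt

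By the nearest TSS, Robo1 had 11 peaks, Slit3 had 7, Slit2 had 6 and Robo2 had 2, whereas Slit1, Robo3 and Robo4 had none. Thus 4 of the 7 genes had a peak, beside 10693 of 21000 protein-coding genes, or 50.9%, to which at least 1 peak was assigned. Assignment to the nearest TSS missed peaks that lay within these long genes. Counted by position, 33 peaks were centred inside the RefSeq body of a Slit or Robo gene, with 14 in Slit3, 9 in Robo1, 7 in Slit1, 2 in Robo2 and 1 in Slit2. So 5 of the 7 genes held a peak, beside 6582 of 21000 protein-coding genes, or 31.3%. Of these 33 peaks only 16 carried the name of the gene they lay in and 17 carried another name, while 10 of the 26 assigned peaks lay outside the gene. Together 43 peaks were assigned to a member or lay inside one. Both counts stand beside gene length: among the 2100 longest protein-coding genes, to which all 5 genes with a peak inside belong, 80.3% had an assigned peak and 80.2% held one.

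**Figure D1:**
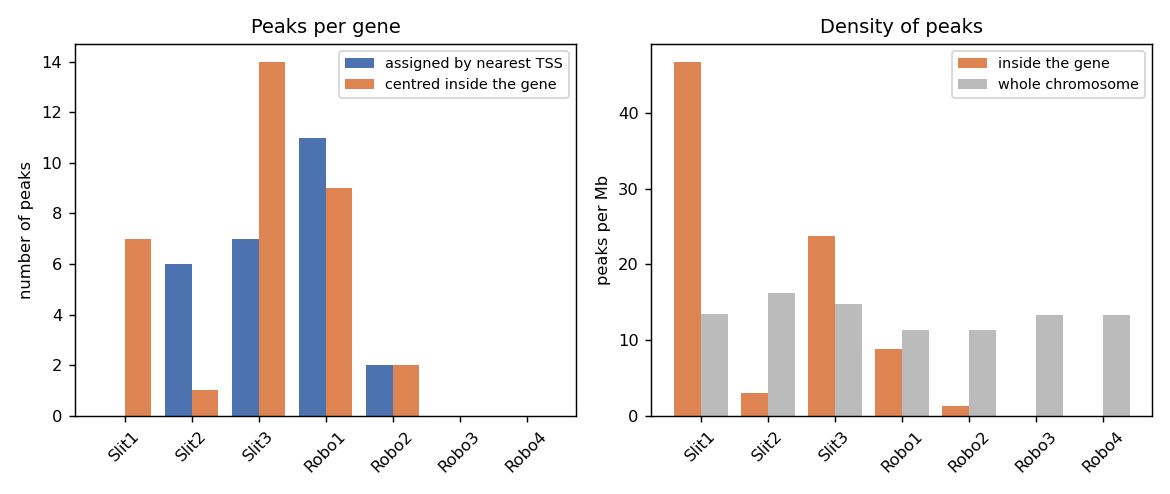
Number of WT-specific H3K9me3 peaks per gene (left) and peaks per Mb (right) for the 7 genes. Blue bars count peaks assigned by the nearest TSS, orange bars peaks centred inside the RefSeq gene, and gray bars give the density of the gene's whole chromosome. Slit1 had 0 assigned peaks and 7 inside, and its density of 46.8 peaks per Mb stood above that of chromosome 19 (13.5).

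The peak score is the authors' value for ranking peaks. No source at hand names its scale, and values under 10 lie on steps of 0.320. Over the 26 assigned peaks the score ran between 5.46 and 8.99 with a median of 6.74, beside a median of 7.06 and a range of 4.49 to 784.3 over the list. At or above the median of the list stood 12 of the 26 peaks (46.2%, 95% Wilson interval 28.8 to 64.5%, counting error only), beside 51.7% of all peaks, some of which tie with the median. The interval includes the share of the list. The width was 500 bp, the commonest one, in 23 of 26 peaks (88.5%), beside 77.1% of all peaks.

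None of the 26 assigned peaks lay within 10 kb of a TSS (interval 0 to 12.9%), beside 19.4% of the 34646 listed peaks that have a distance. The median distance to the TSS was 181 kb, beside 37.4 kb over the list, and 19 of the 26 lay 100 kb or farther away (73.1%, interval 53.9 to 86.3%), beside 26.1% of the list. These shares were not compared at equal gene length. In the authors' annotation 13 were in introns (50.0%, interval 32.1 to 67.9%, beside 34.2% of all peaks), 12 were intergenic (46.2%, beside 59.4%) and 1 was in an exon. None was called a promoter peak, beside 0.805% of the list.

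Slit1 (gene 20562), a secreted ligand expressed mostly in the nervous system, spans 149 kb on the minus strand of chromosome 19 (41597824 to 41747275). None of the listed peaks carried its name, but 7 were centred inside it and all 7 were assigned to Mir8091, a microRNA gene beyond the 3′ end of Slit1. The peak with the highest score of all 43 lay in intron 13 of 36, was 1187 bp wide and had a score of 16.0, a value that 3.30% of all peaks reached. Its centre fell on ORR1F, an LTR element of the ERVL-MaLR family, but only 11.3% of its bases were repeat-masked. It was the only Slit1 peak centred on a repeat. The second was in intron 25 at chr19:41616657-41617282 with a score of 11.6, which 9.39% of all peaks reached. The other 5 were 500 bp wide. Scores of 7.06 were found in introns 34 (chr19:41603071-41603571) and 30 (chr19:41608289-41608789). Intron 23 held a peak with a score of 7.38 (chr19:41625928-41626428), and intron 25 a further peak with a score of 6.1 (chr19:41624124-41624624). The last, also with a score of 6.1 (chr19:41598192-41598692), was intergenic to the authors and lay past the curated 3′ end in an exon of a predicted transcript.

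All 7 Slit1 peaks thus lay in the 3′ part of the gene, 99.4 to 145 kb from its curated TSS, within 46.0 kb and with gaps of 1.80 to 18.3 kb. Their density over the gene was 46.8 per Mb, beside 13.5 per Mb over chromosome 19 and a median of 8.53 per Mb over the 2100 longest genes, of which 49 (2.33%) were as dense. Slit1 was the densest of the Slit and Robo genes ranked in this way. The ranking among the longest genes, here and below, was not among the planned comparisons. At least 7 peaks inside were counted for 260 of 21000 genes. The median GC content was 53.1% and the median share of repeat-masked bases was 4.59%, beside 49.1% GC and 29.8% masked over the list. Much of the list is centred on repeats. For the 6 Slit1 peaks off repeats the medians were 53.3% GC and 3.09% masked, beside 51.0% and 9.18% over all intron peaks off repeats.

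Slit2 (gene 20563), a ligand well known from commissural axon guidance, spans 326 kb on the plus strand of chromosome 5 (47981291 to 48307735). All 6 of its assigned peaks were intergenic, upstream of the gene and centred on repeats, 5 of them on L1 LINEs. The closest lay 16.2 kb from the TSS on IAPEz-int, an ERVK internal sequence, at chr5:47966701-47967201 with a score of 6.42. The next, also with a score of 6.42, lay 101 kb away on L1Md_F2 (chr5:47881938-47882438). One at 144 kb on Lx6 had a score of 5.46 (chr5:47839059-47839559), and one at 428 kb on Lx2 had a score of 6.1 (chr5:47554894-47555394). The highest score was 7.06 on Lx at 466 kb (chr5:47517005-47517650). The farthest lay 831 kb away on L1Md_T with a score of 6.74 (chr5:47151854-47152354). Inside Slit2 a single peak was found, in intron 4 of 35 on the LINE Lx2A1 with a score of 6.1 (chr5:48150002-48150502), and it was assigned to Mir218-1. This microRNA lies in an intron of Slit2 and gives rise to miR-218, which is known to repress Robo receptors.

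The body of Slit2 had 3.06 peaks per Mb, beside 16.2 per Mb over chromosome 5, and 76.7% of the longest genes were as dense or denser. The stretch of 0.938 Mb nearest to the curated Slit2 TSS held 5 peaks, or 5.33 per Mb. By the same measure Slit1 had 0 per Mb, Slit3 17.9, Robo1 10.4 and Robo2 1.75, so the high density of Slit1 held for the gene body only. The assigned peaks, all centred on repeats, had between 34.5 and 100% masked bases. Their median was 74.0%, beside 29.8% over the list. The list also holds peaks off repeats, so these medians are not like for like.

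Slit3 (gene 20564), a ligand also expressed outside the nervous system, spans 587 kb on the plus strand of chromosome 11 (35121456 to 35708507). It differed from Slit2 in where its peaks lay: 6 of the 7 assigned peaks were in introns and off repeats. The exception lay 32.1 kb upstream on the LINE Lx5 with a score of 5.46 (chr11:35089075-35089575). Intron 1 of 35 held peaks with scores of 8.66 (chr11:35151148-35151648) and 6.42 (chr11:35162143-35162643), at 29.9 and 40.9 kb from the TSS. The other 4 were in intron 4, with scores of 7.06 (chr11:35262576-35263076), 7.06 (chr11:35292540-35293040), 5.78 (chr11:35312047-35312547) and 8.99 (chr11:35322850-35323480). The last of these had the highest score of the 26, which 22.1% of all peaks reached.

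A further 8 peaks inside Slit3 carried other names. Of these, 6 were assigned to Mir218-2, the second source of miR-218, which lies in an intron of Slit3. Intron 4 held the Mir218-2 peaks with scores of 6.1 on the SINE B1_Mur4 (chr11:35372180-35372680), 8.34 (chr11:35380751-35381251) and 8.66 (chr11:35403460-35404096). Intron 5 held those with scores of 6.74 (chr11:35523805-35524305) and 6.42 (chr11:35539872-35540372), and intron 32 one with a score of 6.42 (chr11:35688585-35689085). The remaining 2, both in intron 35, were assigned to Pank3, a pantothenate kinase gene. One had a score of 5.46 on the LTR ORR1A2 (chr11:35703705-35704205), and one had a score of 8.66 on the DNA transposon MER102b (chr11:35706804-35707453).

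With 14 peaks inside, Slit3 stood among 41 of 21000 genes (0.195%) that held as many. Its density was 23.8 per Mb, beside 14.8 per Mb over chromosome 11, and 333 of the 2100 longest genes (15.9%) were as dense. Intron 4 alone, 273 kb long, held 7 of the peaks. Off repeats were 11 of the 14, and 3 were on a repeat (21.4%, interval 7.57 to 47.6%), beside 44.5% of all intron peaks.

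**Figure D2:**
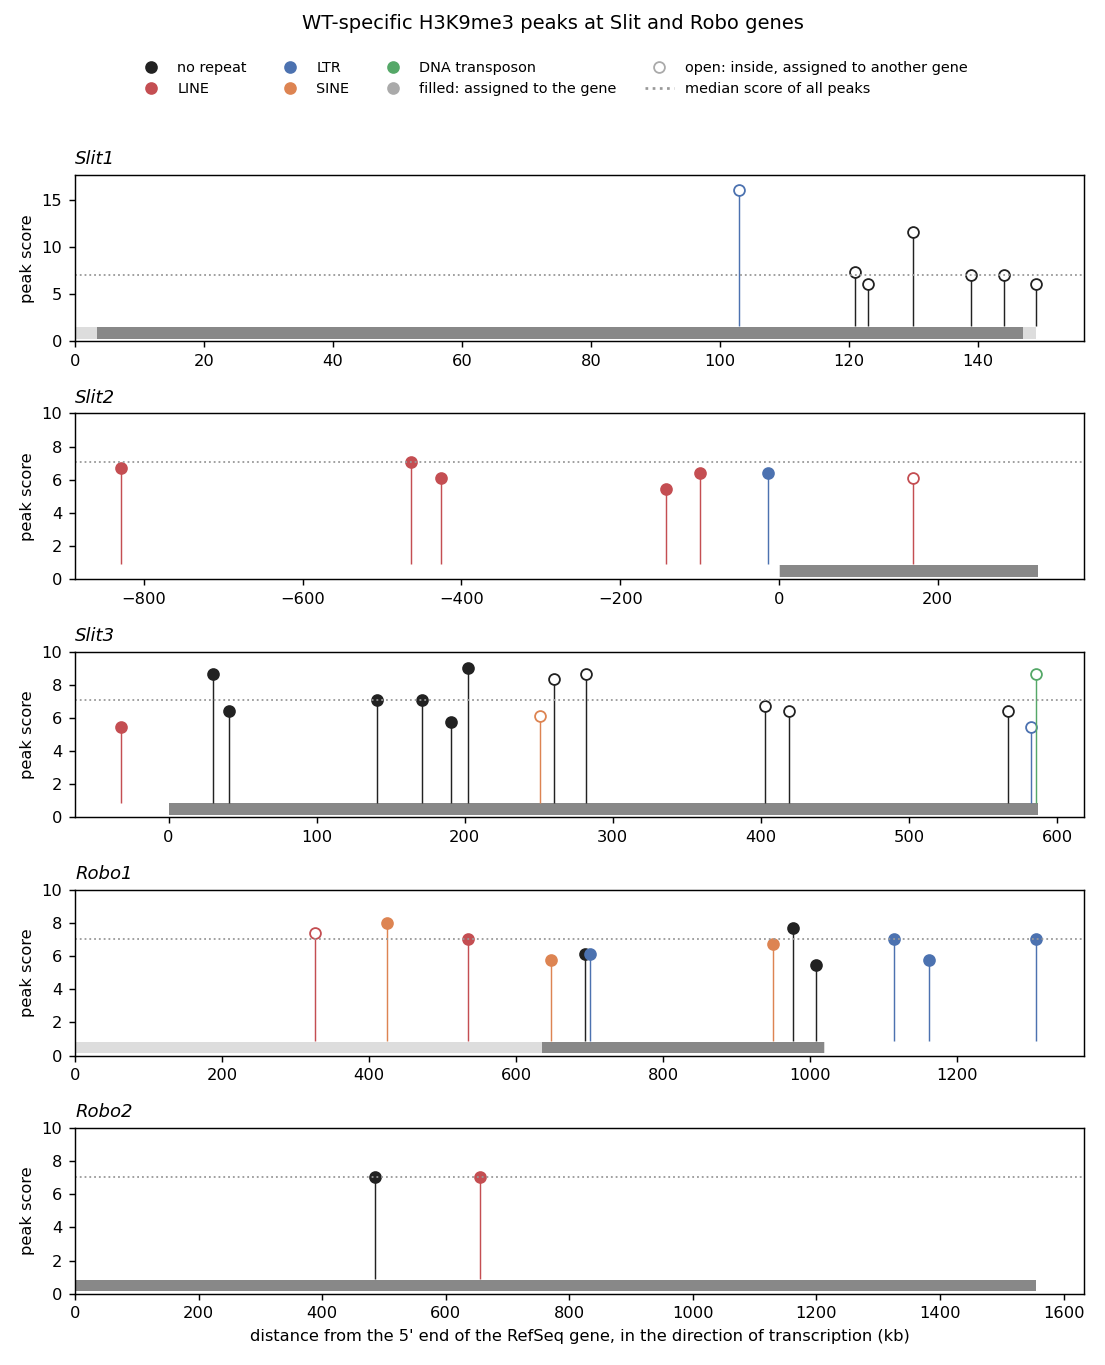
Position and score of each peak at the 5 genes that had any, as distance in kb from the 5′ end of the RefSeq gene in the direction of transcription (x axis) and the authors' peak score (y axis). Filled points are assigned to the gene, open points lie inside it with another gene's name, colors give the repeat class at the centre, dark bars the span of curated transcripts, light bars the RefSeq span, and the dotted line the median of all peaks (7.06). The 7 Slit1 peaks sit at the 3′ end, the assigned Slit2 peaks all lie upstream, and the Slit3 peaks run through the gene.

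Robo1 (gene 19876), a receptor for Slit ligands on neurons and their precursors, had the most assigned peaks, and 218 of 21000 genes (1.04%) had at least 11. Its RefSeq span on the plus strand of chromosome 16 is 1020 kb (72027518 to 73047491) with predicted transcripts and 383 kb with curated ones (72663149 to 73046100). Upstream of the curated span were 2 peaks that the authors called intergenic, on the SINE B4A with a score of 8.02 (chr16:72451282-72451782) and on the LINE L1_Mus3 with a score of 7.06 (chr16:72562206-72562706). Both fell in introns of predicted longer Robo1 transcripts. Another peak in those predicted introns, on Lx4A with a score of 7.38 (chr16:72354423-72354923), was assigned to 8030451O07Rik.

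Within the curated span, intron 1 of 28 held 3 peaks. The closest of all to the TSS, at 11.8 kb, was on B1_Mus2 with a score of 5.78 (chr16:72674700-72675200). The others had scores of 6.1, off repeats (chr16:72721741-72722241) and on MERVL-int, an ERVL internal sequence (chr16:72726873-72727373). Intron 12 held a peak on B4A with a score of 6.74 (chr16:72977049-72977549), and intron 26 one off repeats with a score of 5.46 (chr16:73035378-73035878). The exon peak, with a score of 7.7 (chr16:73004454-73004954), covered 292 of the 336 bp of exon 21 of 29 (73004410 to 73004745). It was the only one of the 43 that the authors placed in an exon.

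Downstream of Robo1 lay 3 peaks on LTR elements, with scores of 7.06 on IAPLTR2a2_Mm (chr16:73140940-73141440), 5.78 on ORR1D1 (chr16:73189068-73189568) and 7.06 on RMER6C (chr16:73334402-73334902). They were 93.7, 142 and 287 kb from the end of the gene. In all, 8 of the 11 assigned peaks were on repeats, with 4 on LTR elements, 3 on SINEs and 1 on a LINE. Over its RefSeq span of 1020 kb with predicted transcripts, Robo1 had 8.82 peaks per Mb, beside 11.3 over chromosome 16. Of the longest genes, 48.0% were as dense. The curated span of 383 kb held 6 of the 9 peaks inside, so the density and its rank beside the chromosome depend on the span used.

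Robo2 (gene 268902), the second neuronal Slit receptor, spans 1555 kb on the minus strand of the same chromosome (73891976 to 75447443). It had 2 peaks, both with a score of 7.06 and both in the first intron, 739 kb long, of the transcript that the authors' annotation names. One was on the LINE Lx2B, 301 kb from the TSS (chr16:74791726-74792226), and one was off repeats, 131 kb from the TSS (chr16:74961600-74962232). That transcript starts within the gene, so the same peaks lay 655 and 486 kb from the 5′ end of the longest Robo2 transcript. Its density inside was 1.29 per Mb, and 80.0% of the longest genes were as dense or denser.

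Robo3 (gene 19649) and Robo4 (gene 74144) are neighbours on chromosome 9, 17.4 and 12.1 kb long (37416045 to 37433436 and 37401902 to 37414023). Neither had a peak assigned to it or inside it. The nearest peak to Robo3 lay 66.7 kb away, was assigned to Msantd2 and had a score of 6.1, and the nearest to Robo4 lay 65.9 kb away, was assigned to Ccdc15 and had a score of 15.4. Among 2100 genes of like length, 47.6% for Robo3 and 43.9% for Robo4 had an assigned peak.

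Of the 26 assigned peaks, 16 were centred on a repeat (61.5%, interval 42.5 to 77.6%), beside 54.0% of all peaks, a share within that interval. By class these were 8 LINEs, all of the L1 family (30.8%, interval 16.5 to 50.0%, beside 16.6%), 5 LTR elements (19.2%, beside 26.6%) and 3 SINEs (11.5%, beside 8.05%). By gene, 6 of 6 assigned peaks of Slit2 and 8 of 11 of Robo1 were on repeats, but 1 of 7 of Slit3. For peaks inside the 7 genes the share was 12 of 33 (36.4%, interval 22.2 to 53.4%), beside 44.5% of all intron peaks. These members share a chromosome segment within each gene and are not replicates, and no difference between the genes was tested.

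**Figure D3:**
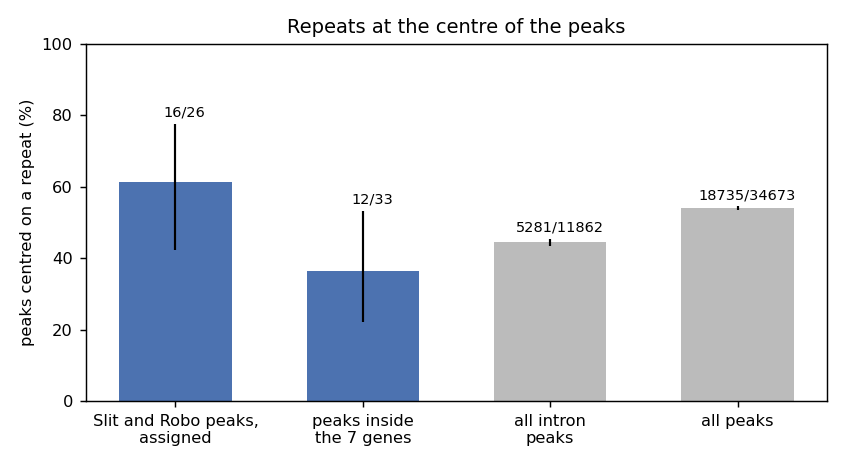
Percent of peaks centred on a repeat, with 95% Wilson intervals as black lines and counts above the bars. Blue bars are the Slit and Robo peaks, by assignment (16 of 26) and by position inside the genes (12 of 33), and gray bars are all intron peaks (44.5%) and all peaks (54.0%).

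The authors placed a read with several matches at its single best match, and the uniqueness of the sequence of each peak is given for that reason. The share of 32-base words of a peak that occur more than once in mm10 was counted. A second occurrence within the same peak counts too, so the share can exceed that of words found elsewhere. The printed sequence of the Robo1 exon peak, whose share was 8.30%, repeats a stretch within itself. For the 21 peaks off repeats its median was 0 and its highest value 17.3%, with 17 peaks at or under 5%. For the 22 peaks on repeats the median was 15.7%, and 4 stood at 50% or more: the L1Md_T (100%) and IAPEz-int (94.3%) peaks of Slit2 and the MERVL-int (100%) and IAPLTR2a2_Mm (74.7%) peaks of Robo1. All 7 Slit1 peaks were at or under 0.605%, the ORR1F peak included. Whether reads of other copies contributed to any peak was not tested.

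**Figure D4:**
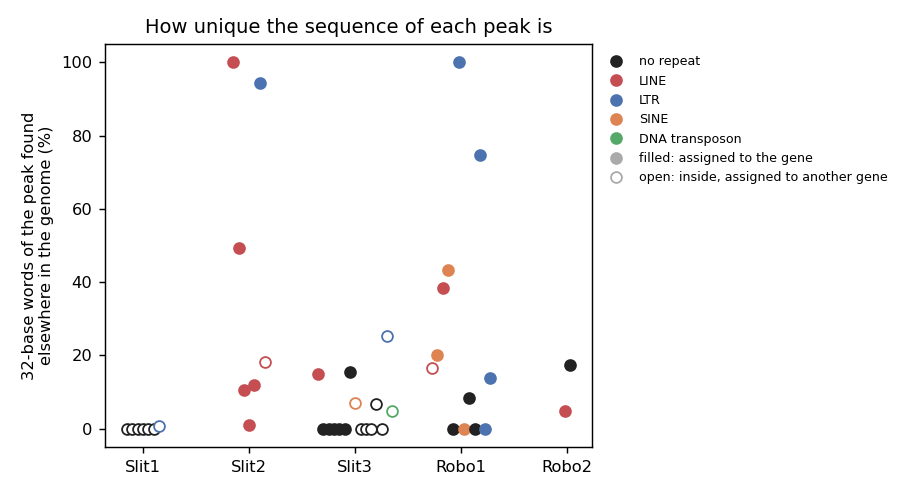
Percent of the 32-base words of each peak that occur more than once in the genome (y axis, labelled as found elsewhere) by gene (x axis), 1 point per peak, colored by repeat class, filled where the peak is assigned to the gene and open where it carries another gene's name. Words repeated within the same peak are included. The Slit1 points all lie at or under 0.605%, and the highest points are LINE and LTR peaks of Slit2 and Robo1.

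A pair of peaks off repeats lay on processed pseudogenes, which are gene copies made by reverse transcription of spliced RNA. The Robo2 peak off repeats lay in Gm26937 (GENCODE M21, 74961240 to 74962247) and matched the Gapdh transcript at 89.0% identity over 617 bp. The highest Slit3 peak overlapped Gm12123 (35323199 to 35323670) by 282 bp and matched transcripts of BC004004 at 90.9% and of Rpl21, a ribosomal protein gene, at 90.5%, both over 317 bp. Among all 15903 peaks off repeats, 353 (2.22%) overlapped a processed pseudogene, as did 1.22% of intron peaks off repeats. Among the 21 Slit and Robo peaks off repeats 2 did (9.52%, interval 2.65 to 28.9%). This count was not among the planned comparisons and followed from the overlaps of these same 2 peaks, so its interval cannot weigh an enrichment.

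The study concerns Nfix, so the letters TTGGCA, and the full NFI palindrome of TTGGC and GCCAA with 5 bases of any kind between them, were searched on both strands. TTGGCA, whose first 5 letters can be part of the palindrome, occurred in 10 of 26 assigned peaks (38.5%, interval 22.4 to 57.5%) and in 14 of 33 peaks inside the genes (42.4%, interval 27.2 to 59.2%), beside 29.1% of all peaks. Among all peaks 500 bp wide it occurred in 26.4%. It occurred in 9 of 23 assigned peaks of that width (39.1%, interval 22.2 to 59.2%) and in 12 of 27 inside (44.4%, interval 27.6 to 62.7%). These shares were not compared with intron peaks or peaks off repeats alone. By gene TTGGCA was held by 2 of 7 peaks inside Slit1, 0 of 1 inside Slit2, 7 of 14 inside Slit3, 3 of 9 inside Robo1 and 2 of 2 inside Robo2. The Slit1 peak with a score of 11.6 held 4 matches, the most of the 43. The palindrome was in no Slit or Robo peak and in 13 of 34600 peaks of the list (0.0376%). A match describes letters only.

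Of 29 other genes tied to Slit and Robo signaling, 17 (58.6%) had an assigned peak and 12 (41.4%) held one, beside 50.9% and 31.3% of protein-coding genes. Most of these genes are long: averaged over the 29 genes, 68.3% of protein-coding genes in the same class of gene length had an assigned peak and 61.1% held one, both above the shares of these 29. By role, 10 of 18 effectors and 7 of 11 other ligands and partners had an assigned peak. Srgap1, a GTPase-activating protein that binds Robo, had 7 assigned peaks and 9 inside, the closest 6.59 kb from the TSS. Dock1, a Rac exchange factor, had 7 assigned and 12 inside. Dcc, the netrin receptor, had 7 assigned and 3 inside. With 6 assigned peaks each, the adaptor gene Nck2 and Flrt3, a Robo1 partner, came next. No peak was assigned to 12 of the 29 genes.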

How the data were processed

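H3K9me3 ChIP-seq was done on BG at postnatal day 10 (2 MT, 2 WT and 2 input libraries, fragments of 200 to 350 bp). According to the methods and the submitters' processing notes, the authors aligned reads to mm10 with Bowtie2 (2.2.8), placed multiply matching reads at their best match, kept at most 1 tag per position, and called and annotated peaks with HOMER (4.10.1). The deposited file gives each peak's position, width, class, repeat, distance to the nearest TSS and the authors' peak score. The call required an excess of tags over the local background around each peak. No source at hand says how the libraries were combined or which control library the call used, and the heading of the list can be read as input, as MT, or as both. The methods and a supplementary table name different antibodies. With no column per sample, depth is unknown.

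Peaks were set beside RefSeq GRCm38.p6 (genes with a curated transcript; pandas 2.3.3, pysam 0.24.0) and GENCODE M21. Of 34395 peaks whose transcript was in RefSeq, 91.5% had the authors' distance within 2 bp, as had 26 of 26 Slit and Robo peaks. The nearest curated TSS belonged to the authors' gene for 87.9% of 34595 peaks and for 25 of 26 Slit and Robo peaks. Densities and motifs left out unplaced contigs (34600 peaks kept). Pseudogene parents were found with blastn 2.17.0 against transcripts (e-value 1e-20). Code was tested on simulated data. Shares have 95% Wilson intervals, and no test was run. Named were all 7 genes, each gene given to a peak inside them, and the 4 genes of the pathway list with most peaks, with ties. Members and lists were chosen with earlier results of these data known. Alternatives changed the score threshold, the rule that ties peaks to genes, the distance and the repeats. The sequence of the highest Slit1 peak is not reported here.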

Additional observations from a re-analysis of the deposited data

How the results depend on the processing

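The count of 26 assigned peaks depended on the rule: it was 12 at or above the median score, 16 for assigned peaks inside the gene, 17 with the nearest TSS recomputed over all RefSeq transcripts, 7 within 100 kb of the TSS, 10 off repeats and 14 inside the span of curated transcripts, an alternative chosen after seeing the data. By overlap with the gene and 5 kb to either side, or wholly inside it, the count was 33. The 4 genes with a peak became 3 to 5. The repeat share of 61.5% moved to 37.5% for assigned peaks inside the gene, 36.4% with the 5 kb flanks, 36.4% wholly inside and 28.6% inside curated spans, and the intron share of 50.0% to 81.2%, 84.8%, 84.8% and 92.9% under these, 71.4% within 100 kb and 90.0% off repeats. At the other settings the repeat share was 50.0% at or above the median score, 57.1% within 100 kb and 70.6% with the recomputed TSS. The intron share was 50.0% at or above the median score and 35.3% with the recomputed TSS. Rules that keep only peaks inside the gene raise the intron share by their design. The median score stayed between 6.10 and 7.06. With only peaks at or above the median of the list kept, it could not fall below 7.06 by design. No paired analysis was possible because the list has no column per library, and leaving out a replicate was not possible for the same reason. Intervals cover counting error only, the depth is unknown, and absence from the list does not show that a region lacked H3K9me3.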

Other observations

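The 3 peaks downstream of Robo1, intergenic in the authors' annotation, lay within 4930500H12Rik, a GENCODE M21 transcript on the plus strand of chromosome 16 (73072338 to 73423667). Only 2 of the 26 assigned peaks had another listed peak within 10 kb (7.69%, interval 2.14 to 24.1%), beside 33.3% of all peaks, while 12 of the 33 peaks inside the 7 genes had one (36.4%). Among all intron peaks off repeats, 80 of 6577 (1.22%) overlapped a processed pseudogene.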
